A study of Mus musculus with 6 samples.

Results

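The RNA described here came from 3 libraries of mouse rod photoreceptors, the control group of a series of 6 libraries in 2 groups, and these 3 were chosen by their labels alone. Plasmids were electroporated in vivo into the retinas of mice on postnatal day 0, and at postnatal day 10 a cell sorter collected the cells with EGFP fluorescence. All 3 control libraries carried the pLKO.1-Scrambled vector, which expresses a short hairpin RNA with no intended target (2.5 µg/µl), together with the Nrlp-EGFP vector, in which the Nrl promoter drives EGFP (1.5 µg/µl), each in 0.4 µl. The sort selects cells by the fluorescence of the Nrlp-EGFP vector alone, and the uptake of the scrambled vector by the same cells was not tested. The labels give the genotype only as control, name no strain, and leave unsaid from which animals each library was made and whether animals were pooled. The RNA of the sorted cells was copied into full-length cDNA by SMART-seq, a method for small inputs, and tagmented with Nextera XT. No group was compared with another, so every value below is a level within the control group, given per library or as mean ± SD over 3 libraries, and no test was made.

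Rods are the retinal neurons that see in dim light. Light is caught in stacked membrane discs of the outer segment, where it leads to activation of the G protein transducin. Transducin releases the inhibition of a phosphodiesterase, and the resulting fall in cyclic GMP closes a cation channel. In the mouse, rods are the most numerous cells of the retina, and by the end of the second week after birth most have begun to build outer segments. Rod identity depends on the transcription factors CRX, NRL and NR2E3.

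Library totals were 46239300 counts in replicate 1, 105801000 in replicate 2 and 32150100 in replicate 3, a 3.29-fold range. Levels are given as counts per 1000000 counts of the library (CPM). Where genes are compared with each other, the level per length is used, which is transcript counts divided by the annotated transcript length and scaled to a sum of 1000000 in each library (TPM). Between 20600 and 22715 of 52143 genes had any count in a library, and between 10121 and 10955 reached 1 CPM. At the smallest total, 3 counts correspond to 0.0933 CPM, and at the largest to 0.0284 CPM. These values serve as a floor, since a level at or under them rests on at most 3 counts, and no presence is claimed from it. The floor covers counting error only, since the reads carried no molecular identifiers.

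Short stretches of DNA upstream of rod genes carry sites for the rod transcription factors, and 250 bases before the RefSeq start are shown for 3 genes of the phototransduction list, chosen because a motif lies in them. They hold the CRX motif TAATCC, the first bases of the NRL response element (TGCTGA) or the AP-1 motif TGANTCA, each on either strand, in capitals. Sequences are from RefSeq on GRCm38.p6, 5′ to 3′ on the gene's strand.
Sag promoter, chr1:87803430-87803679, plus strand: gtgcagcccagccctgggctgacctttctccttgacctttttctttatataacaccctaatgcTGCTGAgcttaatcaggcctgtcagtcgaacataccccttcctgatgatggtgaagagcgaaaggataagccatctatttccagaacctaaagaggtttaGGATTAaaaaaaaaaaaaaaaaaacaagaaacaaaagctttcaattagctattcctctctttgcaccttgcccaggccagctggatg
Pde6b promoter, chr5:108388123-108388372, plus strand: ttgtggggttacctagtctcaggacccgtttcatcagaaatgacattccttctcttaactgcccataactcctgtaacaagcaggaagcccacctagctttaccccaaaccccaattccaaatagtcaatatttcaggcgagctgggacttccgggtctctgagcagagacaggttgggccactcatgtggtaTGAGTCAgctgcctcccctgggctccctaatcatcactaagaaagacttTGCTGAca
Guca1a promoter, chr17:47400607-47400856, minus strand: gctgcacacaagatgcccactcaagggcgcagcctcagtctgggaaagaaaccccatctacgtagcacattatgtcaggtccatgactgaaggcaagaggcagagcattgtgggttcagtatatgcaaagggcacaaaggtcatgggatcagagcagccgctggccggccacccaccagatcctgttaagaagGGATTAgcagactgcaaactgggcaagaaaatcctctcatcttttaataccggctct
In Sag the CRX motif stood at positions -87 to -82 from the start and the NRL motif at -187 to -182. In Pde6b the AP-1 motif stood at -57 to -51 and the NRL motif at -8 to -3, and in Guca1a the CRX motif stood at -57 to -52. Of the 21 phototransduction genes 14 had a promoter in the table, and 8 of these (57.1%) held the CRX motif. They were Sag, Gngt1, Cnga1, Cngb1, Gnb5, Guca1a, Gucy2e and Gucy2f. The same motif lay in 6.25% of all 32851 promoters, and in 5.56% of the 90 promoters found for 75 of the 100 protein-coding genes with the highest level per length. The NRL motif lay in 3 of the 14 (21.4%) against 16.1% of all promoters, and the AP-1 motif in 2 of the 14 (14.3%) against 6.75%. A match is a run of letters and no evidence of binding.

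The defining rod markers were high in all 3 libraries. Sag (ENSMUSG00000056055, chromosome 1, 87803680 to 87845158, GRCm38), which encodes rod arrestin, had more counts than any other gene, at 27929, 35332 and 31535 CPM in replicates 1, 2 and 3. Pdc (chromosome 1, 150319417 to 150333906), which encodes phosducin, a protein that binds the transducin beta and gamma subunits, stood at 21276, 12720 and 16638 CPM. Gnat1 (chromosome 9, 107674474 to 107679712), the rod transducin alpha subunit, stood at 4879, 8941 and 5121 CPM, and ranked 12 among all genes. Nrl, the leucine zipper factor that directs rod fate and whose promoter drives the reporter, stood at 310, 349 and 532 CPM, and ranked 366. Each of these 4 genes was present at over 300 CPM in every library, so the markers go with the label. Jun, the gene targeted in the other group of the series, was low in these controls, at 5.10, 4.98 and 6.19 CPM (5.42 ± 0.663, SD, n = 3).

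Per length, rod genes and mitochondrially encoded genes filled the top of the transcriptome. Among the genes reported here, the order by mean level began with Sag at 26711 ± 4521 TPM, mt-Co3 at 21417 ± 6109, Pdc at 21245 ± 5010, Pde6g at 15771 ± 2229 and Gngt1 at 13657 ± 5924 (SD, n = 3). Ubb, a polyubiquitin gene, came next at 10793 ± 377 and varied less than the genes around it. The order went on with mt-Co2, mt-Atp6, Gnb1, Ldha, mt-Cytb, mt-Co1, Cst3, Tma7, H3f3b, Gpx4, Ndufa4, mt-Nd1, Atp5mpl, Gnat1, Rcvrn, H3f3a and Ndufb8, which closed it at 3677 ± 603 TPM. Each gene in this order overlapped the next in the range of its 3 libraries, so neighbouring ranks do not differ beyond their spread. The order held 6 mitochondrially encoded genes of the respiratory chain, together with the histone H3.3 genes H3f3a and H3f3b. Cst3 encodes the secreted protease inhibitor cystatin C, and Gpx4 a lipid peroxidase. Ubb and the histone H3.3 genes have closely similar copies between which reads may be shared, so their single levels are uncertain. By counts, the 10 leading genes took 14.9%, 14.3% and 15.3% of the 3 libraries, and the leading 100 took 33.1%, 32.0% and 34.6%. From 353 to 442 genes made up 50% of the counts.

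**Figure D1:**
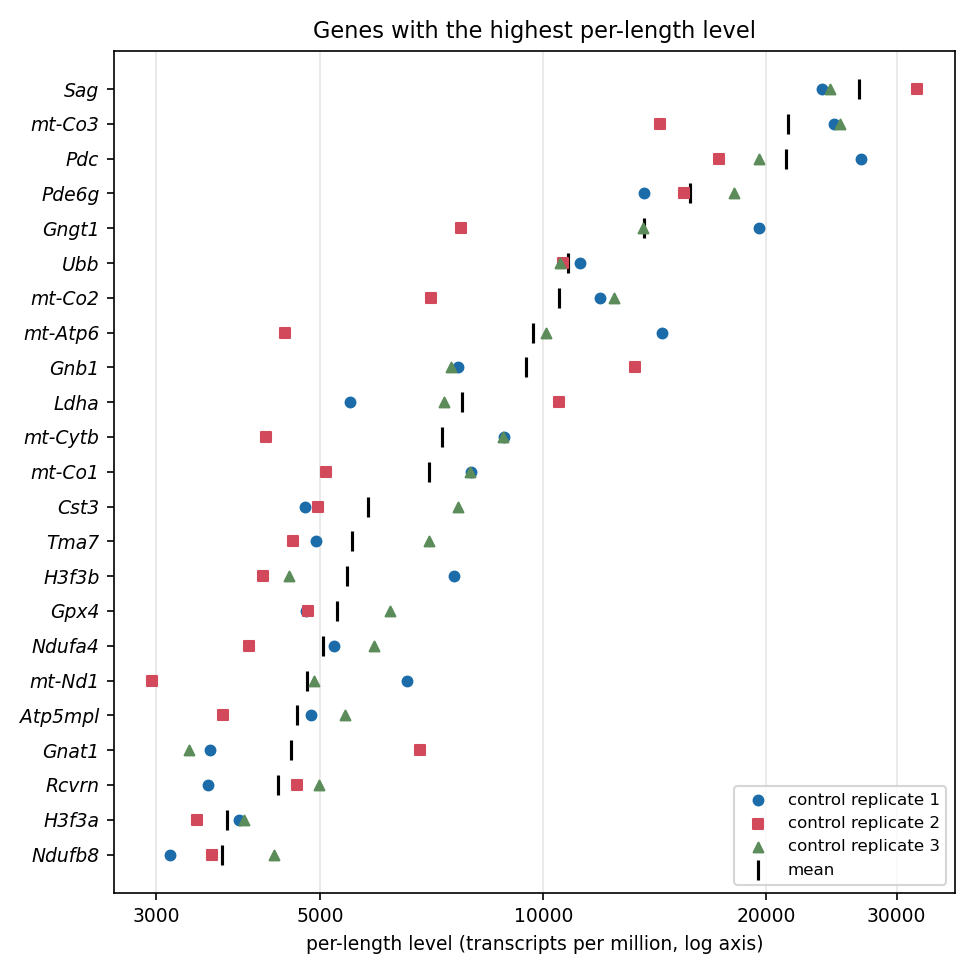
Level per length (TPM, log axis) of 23 of the 25 genes with the highest mean, with 1 point per control library and a bar for the mean. Replicate 2 lies lowest for all 6 mitochondrially encoded genes and for Gngt1, and highest for Gnat1, Gnb1 and Ldha.

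Genes of the phototransduction cascade held 118023, 126936 and 122699 CPM in sum, 12.3% of all counts on average, and their sum varied only 1.08-fold between libraries although single members varied by more. Of 21 genes 20 reached 1 CPM in all 3 libraries and 16 reached 100 CPM in all 3, against 7071 and 1207 of 52143 genes in the whole table. Of these 52143 genes, 23092 had no count in any library. The median member stood at 679 CPM, and the median of the 7071 genes at 46.6 CPM. Sag alone made up 25.8% of the sum.

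The 3 rod transducin subunit genes did not keep a fixed ratio. Gnb1, the beta subunit, which is also used outside the retina, was above Gnat1 per length by 2.16, 1.95 and 2.26 times, a narrow range. Gngt1, the rod gamma subunit, was above Gnat1 by 5.52 times in replicate 1 and 4.11 times in replicate 3, and by 1.14 times in replicate 2. Its CPM of 16102, 5868 and 11973 shows replicate 2 as the low library, the one in which Gnat1 and Gnb1 were highest. Gngt1 and Gnb1 overlapped in range per length.

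Among the subunits of the rod phosphodiesterase, Pde6g, the small inhibitory gamma subunit, was the highest, at 13685, 15508 and 18120 TPM. Pde6b, a catalytic subunit, stood at 1317, 3252 and 1150 TPM, and replicate 2 was the high library. Pde6a, the other catalytic subunit, stood at 50.7, 62.7 and 57.6 TPM. The protein holds 1 of each catalytic subunit, yet Pde6b was above Pde6a by 26.0, 51.9 and 19.96 times per length. The channel subunit genes Cnga1 and Cngb1 differed less, with ratios of 1.40, 0.607 and 1.39 and overlapping ranges per length. Slc24a1, the rod sodium, calcium and potassium exchanger, stood at 49.6, 204 and 64.2 CPM, and its mean of 106 CPM was 56.9 CPM without replicate 2.

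Genes that end the light response lay far apart in level. Grk1, the kinase gene of rods that acts just before arrestin, stood at 21.4, 26.4 and 19.2 TPM, and Sag was above it by 1113, 1209 and 1272 times per length. The complex that speeds GTP hydrolysis by transducin is made of the products of Rgs9, Gnb5 and Rgs9bp. Gnb5 was above Rgs9 by 10.3, 16.8 and 5.96 times per length, and its mean of 389 CPM was 257 CPM without replicate 2. Rgs9bp, the membrane anchor, stood at 27.8, 97.4 and 179 CPM, was above Rgs9 per length in 1 of 3 libraries, and averaged 101 CPM with all libraries and 62.6 CPM without replicate 3.

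Calcium feedback genes ranged from abundant sensors to scarce cyclases. Rcvrn, which encodes the calcium sensor recoverin, stood at 2580, 3111 and 3828 CPM and at 4384 ± 764 TPM (SD, n = 3). Guca1a and Guca1b, the guanylate cyclase activators, stood at 430 ± 26.8 and 224 ± 94.6 CPM (SD, n = 3) as the sum of a main-chromosome copy and a copy on a patch sequence with equal values. Their transcript sums were 209 and 115 CPM, but these hold only transcripts with an annotated length, which the patch copies lack. Per length the cyclase genes stood below Rcvrn, with Gucy2e at 5.41, 7.65 and 12.9 TPM and Gucy2f at 0.118, 3.00 and 3.04. Guca1a and Guca1b have no level per length here. Gucy2f was the only member under 1 CPM in a library, at 0.614 CPM in replicate 1, and without that library its mean went from 11.3 to 16.7 CPM.

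**Figure D2:**
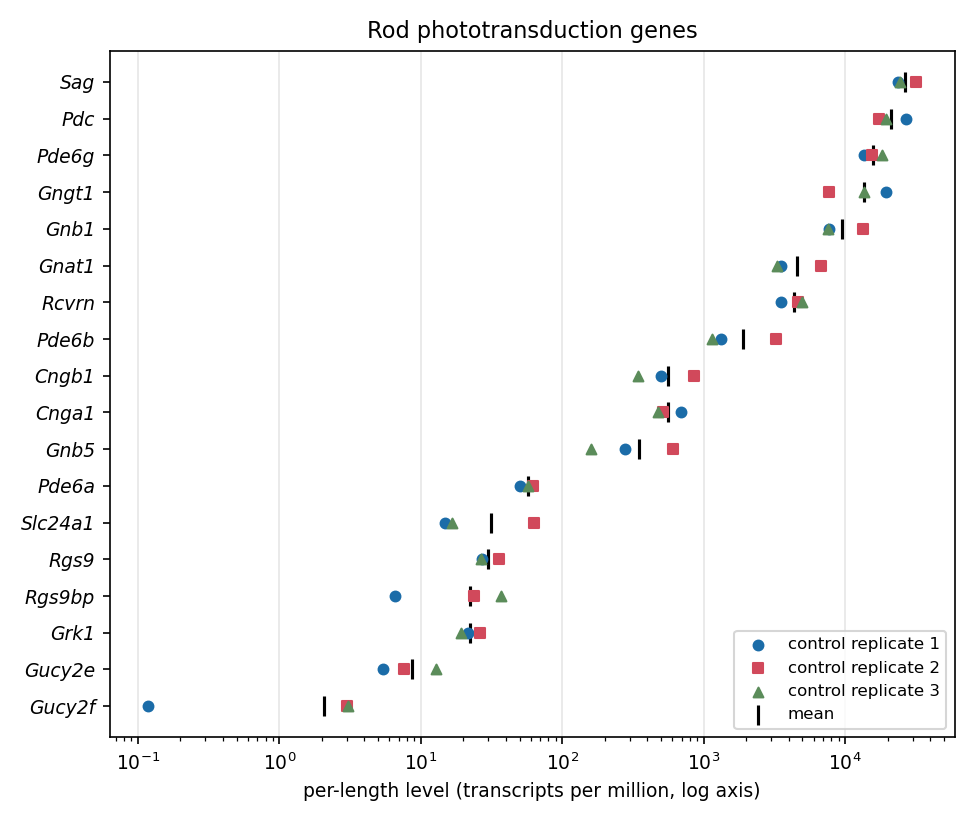
Level per length (TPM, log axis) of 18 phototransduction genes with an annotated length, with 1 point per control library and a bar for the mean. Levels run from 26711 for Sag to 2.05 for Gucy2f, and the catalytic subunit genes Pde6b and Pde6a lie 19.96 to 51.9 times apart.

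Outer segment and cilium genes summed to 17370, 22285 and 18535 CPM. Of 28 genes 25 reached 1 CPM in every library, against 13.6% of all genes. Rom1 (2615 ± 493 TPM), Prcd (2168 ± 183 TPM) and Prph2 (2161 ± 682 TPM) had the highest means per length (SD, n = 3). Prph2, which encodes the disc rim protein peripherin 2, stood at 2792, 4282 and 2911 CPM, and Rom1, its partner, at 2156, 2970 and 2973 CPM. Per length Prph2 was below Rom1 in all 3 libraries, with ratios of 0.864, 0.954 and 0.648, although their ranges overlapped. Rp1, a microtubule-associated protein of the axoneme, stood at 1660, 3256 and 3004 CPM. Arl6, a small GTPase that recruits the Bardet-Biedl syndrome protein complex to membranes, stood at 2107, 938 and 1492 CPM, and replicate 2 was the low library. The cadherin Cdhr1 (1157, 2276 and 686 CPM), the disc protein Prom1 (1180, 1708 and 1022 CPM) and Prcd, a small disc protein (1295, 1016 and 1359 CPM), followed. Aipl1, the chaperone of the phosphodiesterase, stood at 604, 838 and 865 CPM, and Unc119, a carrier of lipid-modified transducin, at 753, 604 and 797 CPM. Bbs4 and Ttc8, members of the Bardet-Biedl syndrome complex, stood at 538 ± 168 and 446 ± 148 CPM (SD, n = 3).

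Some cilium genes varied widely between libraries. Kif3a, a motor of intraflagellar transport, stood at 62.0, 68.6 and 0.298 CPM, and Tmem67, a transition zone protein, at 101, 28.6 and 0.652 CPM. Nphp4, another transition zone protein, stood at 0.0709, 14.9 and 0.0242 CPM. Ift88, a carrier component of intraflagellar transport, stood at 10.9, 1.52 and 92.1 CPM, and replicate 3, the low library of Kif3a and Tmem67, was its high library. Abca4, the retinoid flippase of discs, stood at 101, 59.0 and 100 CPM, and Cep290, Impg1, Impg2, Fam161a, Mak, Reep6, Rpgrip1, Rpgr, Rp1l1, Spata7, Pde6d and Tulp1 had means between 77.1 CPM for Rpgr and 514 CPM for Rpgrip1.

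Photoreceptor transcription factor genes summed to 5848, 7666 and 5216 CPM. Of 16 genes 15 reached 1 CPM in every library, against 13.6% of all genes. Nr2e3, which represses cone genes and acts with NRL on rod genes, stood at 1080, 2248 and 1246 CPM, the highest mean of the list by counts and per length. Neurod1, a basic helix-loop-helix factor of photoreceptors, stood at 1250, 1199 and 870 CPM, and Crx, the homeodomain factor of rods and cones, at 792, 1424 and 599 CPM. Per length, Nr2e3 was above Nrl by 2.76, 4.72 and 1.66 times. Crx was above Nrl in 2 of 3 libraries and above Otx2, which lies upstream of it, in 1 of 3, with overlapping ranges in both cases. Rorb, a nuclear receptor upstream of Nrl, stood at 784, 514 and 892 CPM, and Otx2 at 892, 688 and 543 CPM.

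The same list holds the polycomb-linked factors Samd7 (236, 318 and 143 CPM) and Samd11 (103, 337 and 99.1 CPM). Pias3, a SUMO ligase that acts on rod and cone genes, varied little, at 124, 137 and 122 CPM. Prdm1, which holds back bipolar fate, stood at 18.6, 175 and 26.3 CPM, and its mean of 73.2 CPM was 22.4 CPM without replicate 2. Without replicate 2 the mean of Samd11 went from 179 to 101 CPM and that of Mef2d, an activator of photoreceptor genes, from 43.7 to 23.7 CPM. Casz1 averaged 78.2 CPM, Esrrb, an orphan nuclear receptor of rods, 44.7 CPM, and the retinal progenitor factor Rax 6.97 CPM. The cone factors Thrb and Rxrg are in this list too, and Rxrg was seen at 44.8 CPM in replicate 1, with 0 and 0.0838 CPM in replicates 2 and 3, a mean of 15.0 CPM that was 0.0419 CPM without replicate 1.

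The retinoid and matrix genes summed to 2350, 2998 and 2949 CPM. Rdh12, a retinol dehydrogenase of the inner segment, stood at 1322, 1797 and 1456 CPM, and Rbp3, which encodes the interphotoreceptor retinoid-binding protein, at 685, 896 and 1212 CPM. The other 7 genes had lower means per length, at most 82.8 TPM (Rdh14). Rdh8, the outer segment dehydrogenase, stood at 30.6, 60.1 and 16.9 CPM, and Rdh11 at 5.72, 118 and 52.2 CPM. Rdh14 stood at 166, 47.1 and 35.4 CPM, with a mean of 82.9 CPM that was 41.3 CPM without replicate 1. Egflam, which encodes the synaptic matrix protein pikachurin, averaged 67.0 CPM. Retsat stood at 19.5, 1.15 and 0.0725 CPM, and Stra6, a retinol transporter of the pigment epithelium, was under the floor of 3 counts in every library.

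Ribbon synapse genes summed to 6964, 8133 and 7035 CPM. Of 23 genes 20 reached 1 CPM in all libraries, against 13.6% of all genes. Snap25, a vesicle fusion protein of neurons, was among the steadiest genes of the transcriptome at 3106, 3172 and 3110 CPM. Cplx4, the complexin of rod ribbon synapses, was above Cplx3 per length by 6.25, 3.26 and 2.68 times. The calcium channel of the rod terminal has a pore subunit gene, Cacna1f, at 15.6, 21.3 and 14.1 TPM, and an accessory subunit gene, Cacna2d4, at 59.5, 176 and 88.6 TPM, with no overlap. Cabp4, a calcium-binding regulator of that channel, stood at 233 ± 43.1 CPM (SD, n = 3) over a main and a patch copy. Ctbp2, whose RIBEYE form builds the ribbon, stood at 60.2, 82.3 and 69.5 CPM. Slc17a7, the vesicular glutamate transporter of photoreceptors, was low, at 7.61, 24.1 and 3.60 CPM, and so was Dag1, which encodes dystroglycan, at 1.01, 1.31 and 0.355 CPM. Dmd, its intracellular partner, stood at 368, 173 and 235 CPM. The remaining members were Syt1, Sv2b, Lrit1, Stx3, Cacnb2, Syp, Pclo, Rims2, Unc13b, Vamp2, Elfn1, Bsn and Erc2, with means from 7.69 CPM for Erc2 to 400 CPM for Syt1.

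Glycolytic genes summed to 15975, 25089 and 19471 CPM, with replicate 2 highest. Photoreceptors are known for turning much of their glucose into lactate even with oxygen at hand. Ldha, the lactate dehydrogenase subunit that favours lactate formation, stood at 5824, 10480 and 8527 CPM and ranked 11 of all genes per length. It was above Ldhb, the subunit common in oxidative tissues, by 27.7, 50.0 and 40.6 times per length. Aldoa was above Aldoc, the brain aldolase, by 19.8, 14.6 and 10.8 times per length, and Eno1 above Eno2, the neuronal enolase, by 22.4, 8.04 and 27.6 times. Hk2, the hexokinase tied to photoreceptor glycolysis in adult retina, was uneven, at 0.811, 25.3 and 97.6 CPM, and Hk1 stood at 87.5, 86.8 and 33.5 CPM. Slc2a1, the glucose transporter GLUT1, stood at 62.8, 198 and 62.3 CPM. Nxnl1, which encodes the rod-derived cone viability factor, stood at 354, 504 and 424 CPM, and Bsg, which encodes its receptor basigin, at 288, 261 and 155 CPM.

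Pkm, the pyruvate kinase gene, makes 2 enzymes that differ in 1 exon, and the sequences of both exons are shown because the transcript counts turn on them. They are exon 9 of each transcript, 167 bases long on the plus strand of GRCm38, and capitals mark the 64 bases that differ between them (61.7% identical).
Pkm-201 exon 9, chr9:59675568-59675734: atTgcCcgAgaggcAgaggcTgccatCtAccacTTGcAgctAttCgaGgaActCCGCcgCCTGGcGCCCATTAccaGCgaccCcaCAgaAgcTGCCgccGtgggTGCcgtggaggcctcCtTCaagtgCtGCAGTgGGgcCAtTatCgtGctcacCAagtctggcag
Pkm-202 exon 9, chr9:59675029-59675195: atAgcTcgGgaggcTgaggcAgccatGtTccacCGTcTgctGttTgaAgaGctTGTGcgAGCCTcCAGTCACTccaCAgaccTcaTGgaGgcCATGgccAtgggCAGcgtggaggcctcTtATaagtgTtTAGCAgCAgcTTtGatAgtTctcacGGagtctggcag
Pkm-201, which carries the downstream exon of the PKM2 enzyme, held 90.5%, 88.6% and 94.6% of the gene's transcript counts. Pkm-202, which carries the upstream exon of the PKM1 enzyme, held 5.74%, 11.4% and 5.40%. The PKM2 form therefore led in all 3 libraries, and the PKM1 form was highest in replicate 2.

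Bsg has a retina-enriched long form with an additional immunoglobulin domain, and its transcript Bsg-201 holds an exon of 348 bases (exon 2, chr10:79708697-79709044, plus strand, GRCm38) that Bsg-205 lacks. The first 120 bases of that exon are shown, since counts on it tell the forms apart.
Bsg-201 exon 2, first 120 bases: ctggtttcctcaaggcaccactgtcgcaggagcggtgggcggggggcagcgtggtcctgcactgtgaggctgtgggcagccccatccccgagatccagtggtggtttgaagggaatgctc
Bsg-205, the shorter form, held 47.6%, 50.3% and 36.4% of the transcript counts of Bsg, and Bsg-201 held 32.4%, 49.6% and 31.2%. A further short transcript, Bsg-202, held 19.98% and 32.2% in replicates 1 and 3 and 0% in replicate 2. The long form and the short form Bsg-205 were thus seen in every library, in shares that differed between libraries.

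Mitochondrially encoded genes took 5.34%, 2.49% and 5.19% of the counts, so replicate 2 stood apart. mt-Co3, a subunit of cytochrome oxidase, stood at 14367, 7355 and 14588 CPM, and mt-Atp6, a subunit of ATP synthase, at 7536, 2005 and 5079 CPM. Ribosomal protein genes took 1.42%, 1.26% and 2.01%. Leaving the mitochondrially encoded genes out of the total raised the sum of the phototransduction list from 122553 to 128086 CPM.

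Immediate early and stress genes summed to 1511, 2151 and 1124 CPM, and Hspa5, a chaperone of the endoplasmic reticulum, stood at 748, 1010 and 448 CPM, the largest part of that sum. Egr1, an immediate early zinc finger factor, stood at 176, 190 and 78.2 CPM, and Ddit3, a factor of the unfolded protein response, at 225, 154 and 171 CPM over its 2 gene identifiers. Fos was uneven, at 31.4, 146 and 0.913 CPM. Among the partners of Jun in AP-1, Junb stood at 3.13, 9.51 and 4.17 CPM, Jund at 0.600, 0.332 and 1.63 CPM over its copies, Fosb at 0.0203, 1.46 and 0.0602 CPM and Atf3 at 37.7, 64.6 and 26.9 CPM. Of this list 12 of 18 genes reached 1 CPM in all libraries, against 13.6% of all genes.

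Long noncoding RNA genes of the list summed to 5665, 4354 and 4695 CPM, of which Malat1, a nuclear RNA, made up 88.7% at 5126, 3747 and 4177 CPM. The transcript table gave Malat1 1910 CPM on average against 4350 CPM in the gene table. Gas5 stood at 306, 263 and 332 CPM. Xist stood at 8.27, 32.3 and 33.3 CPM and Tsix, its antisense gene, at 62.9, 22.9 and 14.5 CPM. The libraries were not stated to keep strand, so reads of Xist and Tsix cannot be told apart where the genes overlap. Tug1 stood at 65.0, 155 and 5.63 CPM, with a mean of 75.3 CPM that was 35.3 CPM without replicate 2.

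RNA of cell types other than rods was measured with 13 marker lists. For comparison with the member counts below, 13.6% of all genes reached 1 CPM in every library. That share counts all 52143 genes, of which 23092 had no count in any library. In such bulk samples, fewer cells of a type and less RNA per cell cannot be told apart, and a sum of counts weighs long transcripts more than short ones. Cone genes had the largest sum, at 3784, 6118 and 3100 CPM (0.433% of counts on average), 8 of 13 reached 1 CPM in every library, and replicate 2 was highest. Opn1sw, the short-wavelength opsin, stood at 984, 2577 and 538 CPM, with a mean of 1366 CPM that was 761 CPM without replicate 2. Gnb3, a transducin beta subunit of cones and ON bipolar cells, stood at 708, 1849 and 607 CPM, and Gngt2, the cone gamma subunit, at 1018, 738 and 1293 CPM. The mean of Gnb3 went from 1055 to 658 CPM without replicate 2. Per length, Gnat1 was above the cone alpha subunit gene Gnat2 by 11.5, 21.8 and 21.0 times, and Gngt1 above Gngt2 by 8.71, 3.97 and 4.43 times. Opn1sw was above Opn1mw, the medium-wavelength opsin, in all 3 libraries, by 1.78, 11.5 and 1.75 times, with overlapping ranges. Pde6h, the inhibitory subunit of the cone phosphodiesterase, stood at 179, 148 and 223 CPM, and Gnat2 at 341, 317 and 175 CPM. Arr3, the cone arrestin, averaged 107 CPM. Pde6c, the catalytic subunit of the cone phosphodiesterase, stood at 7.06, 62.7 and 0.0655 CPM, Cngb3 at 18.1, 74.5 and 0.0308 CPM, and Cnga3, the other cone channel subunit, under 1 CPM in every library. Whether cones in the sort or cone transcripts in rods gave these counts was not tested.

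Bipolar genes summed to 911, 1086 and 1013 CPM, and 11 of 17 reached 1 CPM in all libraries. Pcp2, a rod bipolar gene, stood at 152, 141 and 250 CPM, Isl1, a factor of ON bipolar and other inner retinal cells, at 195, 198 and 112 CPM, and Scgn, a calcium-binding protein of cone bipolar cells, at 112, 156 and 131 CPM. Prkca, the classic rod bipolar marker, which encodes protein kinase C alpha, stood at 19.1, 6.76 and 13.9 CPM. Trpm1, the ON bipolar channel, was uneven, at 5.24, 98.6 and 106 CPM. Müller glia genes summed to 1782, 1954 and 1760 CPM, but Clu, which encodes the secreted chaperone clusterin, made up 54.6% of that, at 972, 1026 and 1002 CPM, and is made by other retinal cells too. Rlbp1, a retinal-binding protein of Müller glia and pigment epithelium, stood at 268, 405 and 221 CPM, and Glul, glutamine synthetase, at 156, 35.2 and 33.8 CPM. Aqp4, the glial water channel, was under 1 CPM in every library.

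Microglia and macrophage genes summed to 1021, 830 and 993 CPM, and 11 of 18 reached 1 CPM in each library. Lyz2, a lysozyme gene of macrophages, made up 42.4% of the sum, at 559, 322 and 327 CPM. The complement genes C1qb (36.2, 51.5 and 29.6 CPM) and C1qa (32.1, 40.7 and 9.98 CPM), the adaptor gene Tyrobp (64.5, 95.6 and 56.1 CPM) and the purinergic receptor gene P2ry12 (55.8, 49.5 and 28.9 CPM) reached 1 CPM in all libraries. So did Ctss, a lysosomal protease gene, at 86.7, 100 and 202 CPM, and Cd68, C1qc, Fcer1g and Aif1, with means from 18.0 CPM for Aif1 to 33.8 CPM for Cd68. Cx3cr1, Itgam and Tmem119 were under 1 CPM throughout, and Tmem119 had no count in replicates 2 and 3. The part of such cells in the counts of other genes was not tested.

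Inner retinal neurons of other kinds left few counts. Amacrine genes summed to 36.6, 54.0 and 11.4 CPM. Of 11 members 1 reached 1 CPM in every library, a share near the 13.6% of all genes. Pax6, an amacrine and ganglion cell factor, stood at 23.1, 16.3 and 0.827 CPM, and Gad2, Th and Chat were under 1 CPM in all 3. Horizontal cell genes summed to 60.3, 14.8 and 33.6 CPM, and 2 of 5 reached 1 CPM in every library. Prox1, a factor of horizontal and other inner retinal cells, stood at 21.1, 7.91 and 25.2 CPM, Onecut2 at 33.6, 6.49 and 5.96 CPM, and Calb1 at 5.57, 0.174 and 1.54 CPM, while Lhx1, which defines these cells, was under the floor of 3 counts in each library. Ganglion cell genes summed to 38.0, 9.82 and 4.38 CPM, mostly from Rbpms in replicate 1 (37.7 CPM), and the mean of 17.4 CPM was 7.10 CPM without that library. Pou4f1, Pou4f2, Sncg and Nefl were under 1 CPM in every library. Astrocyte genes summed to 28.4, 83.2 and 27.1 CPM, led by Gfap in replicate 2 at 79.0 CPM, and the mean of 46.2 CPM was 27.7 CPM without it. Pax2 and Aldh1l1, which mark retinal astrocytes, were under 1 CPM.

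Cells from outside the neural retina gave similarly small sums. Endothelial and pericyte genes summed to 61.3, 87.5 and 142 CPM, with Rgs5, Acta2 and Kdr as the only members at 1 CPM in all libraries, and Cdh5, Tek and Kcnj8 had no count in any. Erythroid genes summed to 126, 130 and 212 CPM, led by the globin genes Hbb-bs (68.2, 63.6 and 64.8 CPM) and Hba-a1 (39.1, 41.1 and 107 CPM). The globin genes have near-identical copies, so counts of single copies are uncertain. Pigment epithelium genes summed to 45.4, 148 and 89.9 CPM, mostly from Rgr, a retinal-binding receptor (0.150, 60.7 and 39.8 CPM), and the melanin synthesis genes Dct (20.9, 39.5 and 13.2 CPM) and Tyrp1 (18.9, 31.0 and 0.0297 CPM). Of 10 members 2 reached 1 CPM in every library, and Rpe65, Best1 and Pmel, 3 defining genes, were at or under the floor of 3 counts in all libraries. Progenitor and cycling genes summed to 114, 112 and 198 CPM, of which Pcna, a replication and repair factor, made up 91.3%. Mki67 was under 1 CPM in 2 of 3 libraries, and Sfrp2, a secreted Wnt modulator, had no count. Lens crystallin genes summed to 60.1, 66.6 and 28.9 CPM, of which Cryab, also a stress chaperone, made up 91.4%.

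**Figure D3:**
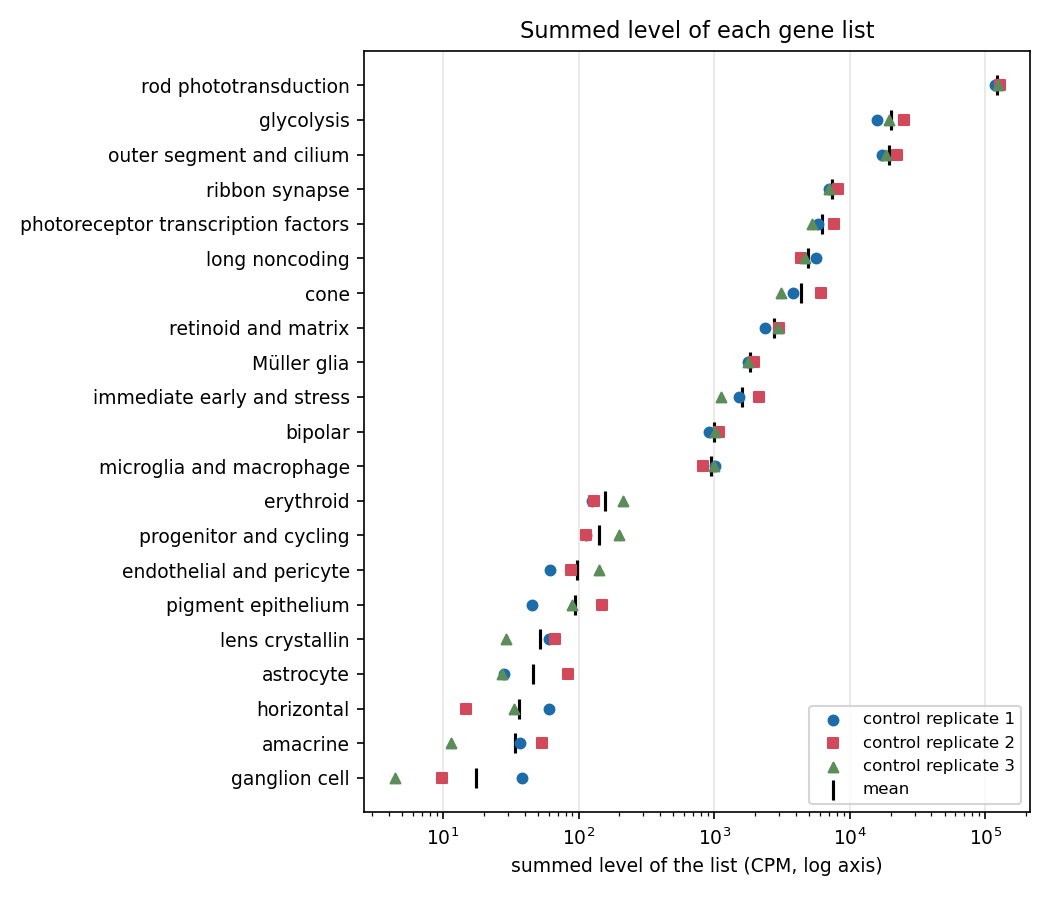
Summed level (CPM, log axis) of the 21 gene lists in each of the 3 control libraries, with a bar for the mean. Rod phototransduction lies near 122553 CPM with little spread, cone genes near 4334 CPM, and the amacrine, horizontal and ganglion cell lists between 4.38 and 60.3 CPM.

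Many genes gave most of their transcript counts to 1 transcript. Shares and leading transcripts are by counts not divided by length, so a leader by counts need not lead per length. Of 5450 genes with several annotated transcripts and at least 100 transcript counts in each library, 3717 (68.2%) had the same leading transcript in all 3 libraries, and 1681 (30.8%) had over 90% of their counts on the same transcript in each. The share with the same leader went up with level, from 56.9% of genes at 10 to 30 CPM to 89.1% at 300 CPM and above. Sag-201 held 99.0%, 98.7% and 98.8% of the Sag counts, Gnat1-201 held 99.7%, 99.8% and 99.8% of the Gnat1 counts, and Crx-201 held 100%, 99.8% and 99.8% of the Crx counts. Nr2e3-201 held 91.8%, 87.2% and 86.8%, with retained-intron transcripts next. Pdc was split between Pdc-204 (69.7%, 68.5% and 71.0%) and Pdc-201 (30.3%, 30.9% and 29.0%), which have the same coding length of 732 bases. By counts Nrl was split 3 ways. Its transcripts Nrl-207, Nrl-201 and Nrl-203 are 733, 2504 and 1928 bases long. Per length the share of Nrl-207 would therefore be larger. Nrl-207, a transcript with a coding length of 186 bases, held 43.1%, 46.1% and 40.5%, and Nrl-201 and Nrl-203, with a coding length of 711 bases each, held 32.2%, 31.6% and 31.5% and 17.7%, 21.5% and 25.9%.

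By counts, other photoreceptor genes changed their leading transcript between libraries. Rpgr, the ciliary GTPase regulator whose ORF15 form is used in photoreceptors, gave 78.2% and 99.7% of its counts to Rpgr-203 in replicates 1 and 3 and 0% in replicate 2, where Rpgr-201 led with 42.0%. Rpgrip1, its partner at the connecting cilium, was led in replicate 1 by Rpgrip1-217 (46.0%), annotated as a target of nonsense-mediated decay. In replicates 2 and 3 Rpgrip1 was led by Rpgrip1-218, a retained-intron transcript (27.8% and 30.2%). Rpgrip1-217 has a length of 1733 bases and Rpgrip1-218 of 7878. Prom1 was led by Prom1-208 in replicate 1 (53.9%) and by Prom1-206 in replicates 2 and 3 (52.4% and 53.5%). Cacna1f was led by Cacna1f-209, a nonsense-mediated decay transcript, in replicate 1 (56.1%) and by Cacna1f-202 in replicates 2 and 3 (75.6% and 99.1%). The few counts of Slc17a7 lay mostly on the retained-intron transcript Slc17a7-204 in replicates 1 and 3 (84.9% and 87.4%), and on the coding transcript Slc17a7-201 in replicate 2 (68.1%). Among the most abundant genes, Gnb1 was led by Gnb1-202 in replicate 1 (40.1%) and by Gnb1-208 in replicates 2 and 3 (34.4% and 31.8%). Gnb1-202 and Gnb1-208 both have a coding length of 1020 bases, and total lengths of 3088 and 2832. The shorter Gnb1-209, of 1058 bases, held 21.1%, 26.9% and 30.8%, close to the leader in replicate 3.

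In protein-coding genes, transcripts annotated as protein coding held 93.1%, 92.2% and 92.4% of the transcript counts. Retained-intron transcripts held 2.78%, 3.56% and 3.35% (3.23 ± 0.405, SD, n = 3), and nonsense-mediated decay transcripts 2.47%, 2.55% and 2.38%. In Gnb3 retained-intron transcripts held 42.2%, 42.8% and 31.6% of the gene's counts. Cers4 and Dock10, chosen after their values were seen, gave 73.8%, 71.2% and 61.1% and 100%, 91.7% and 100% of their counts to retained-intron transcripts. Whether these counts come from unspliced RNA or from how reads were shared between transcripts was not tested.

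**Figure D4:**
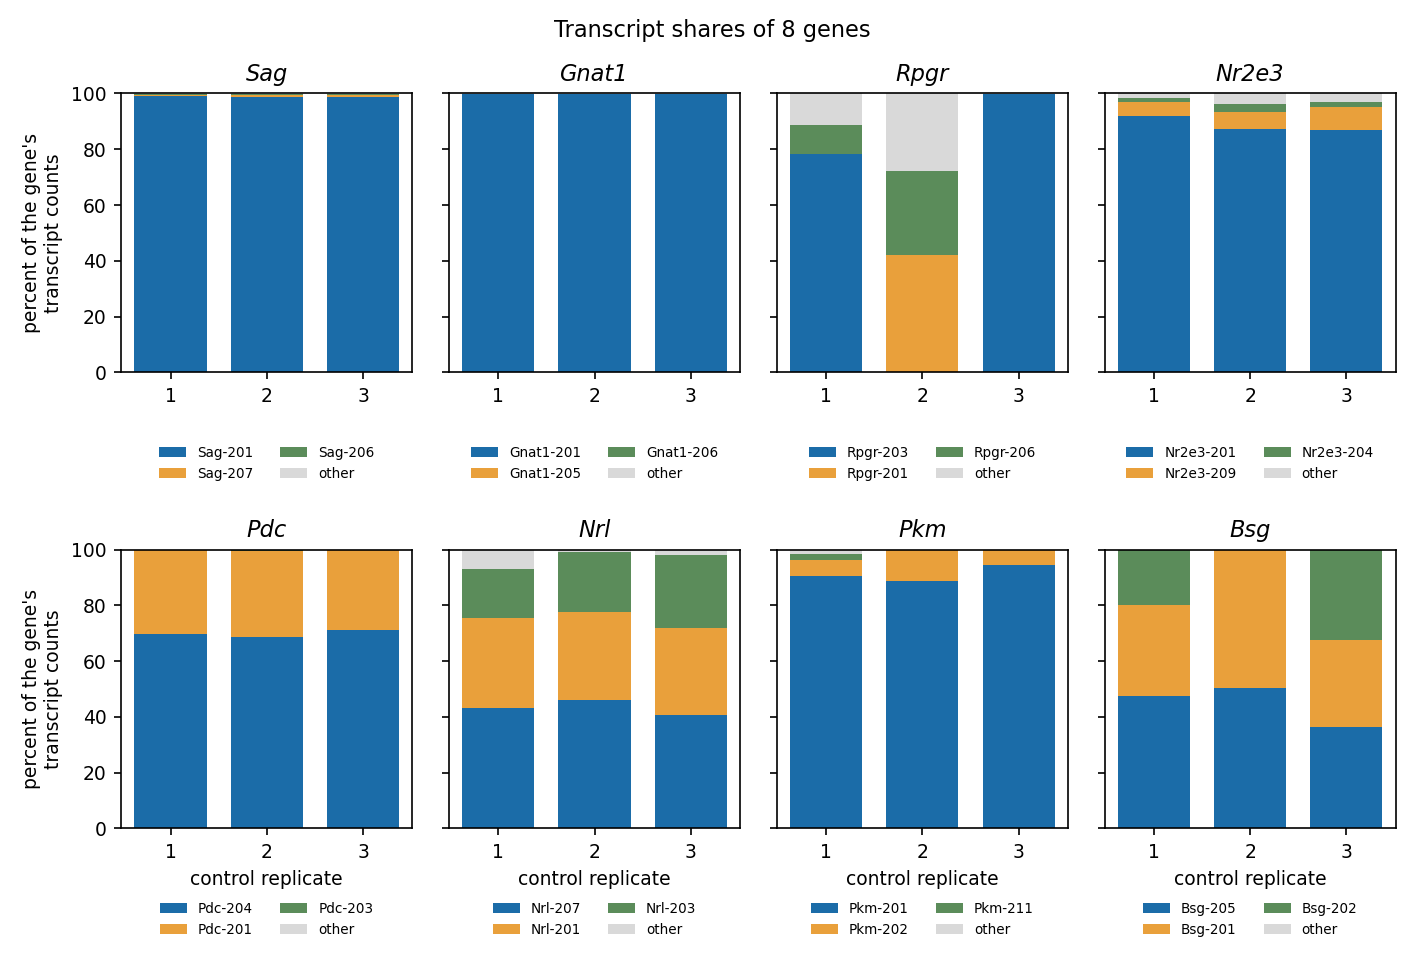
Share of the transcript counts (percent) of 8 genes held by their 3 leading transcripts and by all others, in the 3 control libraries. Sag and Gnat1 sit almost wholly on 1 transcript, Pdc, Nrl and Bsg are split, and Rpgr has no Rpgr-203 in replicate 2.

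The 3 libraries agreed best on the most abundant genes and differed widely on others. At a mean of 1000 CPM or more (101 genes), the median ratio of the highest to the lowest library was 1.59, and 82.2% of genes lay within 2-fold. At 100 to 300 CPM (1400 genes) 50.9% lay within 2-fold. Across the 1914 genes at a mean of 100 CPM or more, Spearman's coefficient between pairs of libraries was 0.620, 0.634 and 0.605. At 30 to 100 CPM (2885 genes) the median ratio was 3.32 and 21.4% of genes were over 10-fold apart, and at 10 to 30 CPM (2813 genes) these values were 15.8 and 56.9%. Of 9468 genes at 10 CPM or more in a library, 2923 (30.9%) were under 1 CPM in another. Thinning all libraries to the smallest total gave 2926 such genes. Thinning equalises the totals only, not the number of distinct molecules behind them. With any single library left out it was 1758 (without replicate 1), 1653 (without replicate 2) and 1443 (without replicate 3) over the remaining pair. Of 2885 genes at 100 CPM or more in a library, 94 were under 1 CPM in another. Pearson's r of log2(CPM + 1) between libraries was 0.733, 0.698 and 0.688 across 14095 genes at 1 CPM or more in any library, a description across genes, which are not independent replicates.

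**Figure D5:**
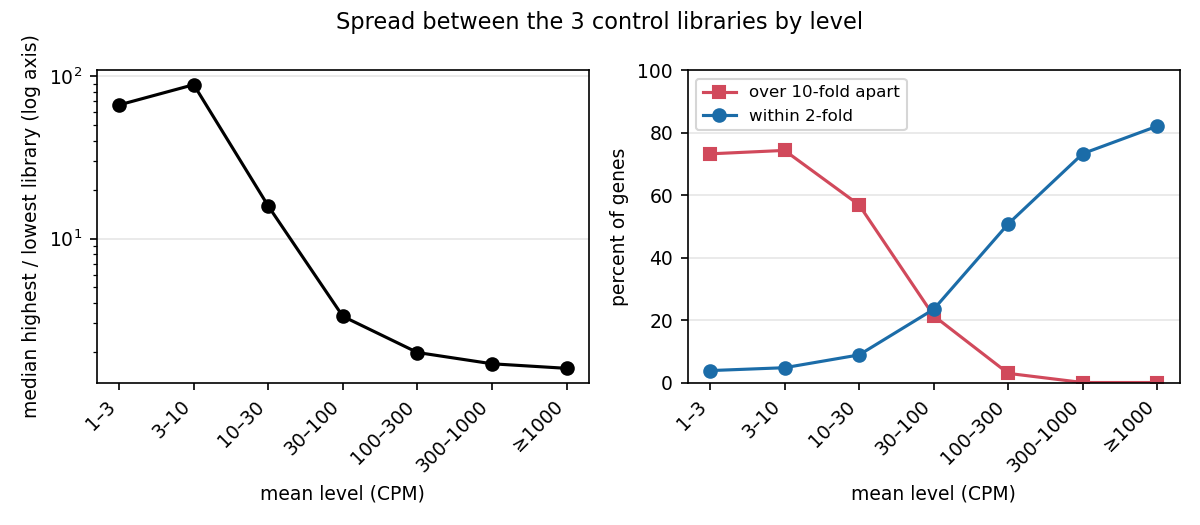
Left, the median ratio of the highest to the lowest control library (log axis) by mean level. Right, the percent of genes within 2-fold and over 10-fold apart. The median ratio goes from 66.5 at 1 to 3 CPM to 1.59 at 1000 CPM and above.

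Among named genes at a mean of 100 CPM or more, the steadiest were Ldhb (151, 149 and 149 CPM), Snap25, Rpl8, Rnps1, Pgam1, Arpc5, Supt16, Fam32a, Ndufs7 and Clu, with ratios of the highest to the lowest library from 1.02 to 1.06. They include a glycolytic enzyme (Pgam1), a complex I subunit (Ndufs7) and a histone chaperone (Supt16). The most variable were Kcnj14, Polr2b, Zbtb37, Sec23a, Fam107b, Slc35b4, Mtf1, Jchain, Ttll1 and Myt1. Kcnj14, a potassium channel gene of photoreceptors, stood at 144, 184 and 0.247 CPM. Polr2b, a core subunit of RNA polymerase II that all cells use, stood at 99.9, 245 and 0.344 CPM, and Sec23a, a coat protein of secretory vesicles, at 190, 227 and 0.606 CPM. In 7 of these 10 genes replicate 3 was the low one. Jchain, the joining chain of secreted antibodies, stood at 303, 140 and 1.55 CPM. Zbtb37 went the other way, at 0.723, 6.56 and 316 CPM, Mtf1 was lowest in replicate 2 at 313, 1.30 and 125 CPM, and so was Myt1 at 598, 4.10 and 24.2 CPM.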

How the data were processed

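RNA-seq libraries of 3 control samples were described, grouped by their labels. The authors deposited estimated counts per gene and per transcript, which were used unrounded. Another deposited table, named as CPM, has columns that sum to more than 1000000, so its values were treated as a signal on the authors' scale and only its gene symbols, biotypes and coordinates were used. Trimmomatic 0.39, kallisto 0.44.0 and edgeR 3.28.1 stand in the submitters' processing notes without role. Build and annotation are not given in the sources used here. Deposited coordinates fit GRCm38. Such estimated counts share reads between similar transcripts by a model, so shares of single transcripts carry an error that the tables do not give.

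CPM is the count divided by the column sum, times 1000000, summed over all identifiers of a symbol. Levels per length used the transcript counts and annotated GENCODE vM21 lengths, not effective lengths, so short transcripts are understated and genes on patch sequences have none. Of 136550 transcripts 134551 had a length. Gene counts are not sums of transcript counts: of 5465 genes, the ratio of the 2 tables was steady within 5% over libraries for 34.7%, and for 59.0% when transcripts were summed per length. TMM factors came from edgeR 4.0.16 (R 4.3.3), other steps from Python 3.11.15 with pandas 2.3.3. The functions were tested on simulated data. There are 0 sample columns without a sample.

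Genes were named by rule: the 25 highest per length, all members of the rod lists, the leading members of other lists, Sag, Gnat1, Nrl, Pdc and Jun, the 10 most variable and 10 steadiest at 100 CPM or more, and a set of genes for isoforms. Predicted gene models were passed over (2 among the highest), and some genes of the lists are not reported here, though list sums include them. The members, gene lists and rules were chosen with earlier results of these data known. Library totals ranged from 32150100 to 105801000 counts. Replicates may be technical, since no source names their animals. Alternatives were thinning, other thresholds, TMM scaling, transcript sums, and leaving out each library.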

Additional observations from a re-analysis of the deposited data

How the results depend on the processing

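With 3 libraries and no test, 138 values (gene counts, list sums, shares and the CPM of 110 genes) were recomputed under other settings and compared with the spread between libraries. Levels per length, subunit ratios, single transcript shares and the CPM of other genes were not. The number of genes with any count in all 3 libraries was 15453, and 9129 when 10 counts were asked for in each. The mean Pearson r between libraries was 0.706 with log2(CPM + 1), 0.608 with a pseudocount of 0.1, 0.807 with 10, and 0.583 over genes at 10 CPM or more in any control, so it depends on how low values are weighed. The summed level of the phototransduction list was 122553 CPM, 128086 CPM without mitochondrially encoded genes in the total and 114096 CPM from transcript sums. Genes with the same leading transcript numbered 3717 of 5450, and 2364 of 3043 (77.7%) when 1000 transcript counts were asked for in place of 100. Genes at 10 CPM or more in a library and under 1 CPM in another numbered between 1443 and 1758 with 1 library left out. TMM scaling moved no list sum and no gene level of 110 by more than the spread between libraries. Transcript sums moved 12 of 110 genes, among them Malat1, Guca1a and Guca1b, and 3 of 21 lists. These sums hold only transcripts with an annotated length, so the patch copies of Guca1a and Guca1b were left out of them. The left-out patch genes and the thinned and TMM counts of uneven genes were chosen after seeing the data. Low depth limits genes under 0.0933 CPM. No paired analysis was possible because only the control group was described.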

Other observations

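The libraries differed with the length and base composition of transcripts. Over 1831 protein-coding genes at a mean of 100 CPM or more, the median difference of replicate 2 from the mean of the other libraries was -0.44 on the log2 scale in the 458 genes with the shortest transcripts, up to 1239 bases, and 0.24 in the 458 with the longest, from 2832 bases. Replicate 3 went the opposite way, at 0.39 and -0.22, and replicate 1 hardly moved with length, at 0.05 and 0.02. By GC content, the same difference for replicate 1 was 0.39 in the 458 genes with the lowest GC and -0.23 in the 458 with the highest, against -0.27 and 0.02 for replicate 2 and -0.02 and 0.21 for replicate 3. With GC content, Spearman's coefficient across these genes was -0.317, 0.179 and 0.104 for replicates 1, 2 and 3. Spearman's coefficient across these genes between length and the difference was 0.343 for replicate 2, -0.277 for replicate 3 and -0.031 for replicate 1, a description across genes that share libraries. The part of length and GC content in the ratios between subunit genes was not tested.

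Each library also held genes far higher there than in both others, here named after their values were seen. Under 1 CPM does not mean absent, since it can lie well above the floor of 3 counts. Genes at 10 CPM or more in 1 library and under 1 CPM in both others numbered 294 in replicate 1, 469 in replicate 2 and 290 in replicate 3, and took 0.701%, 1.13% and 0.799% of the counts. The highest were Arhgap32 at 161 CPM in replicate 1, Mavs at 147 CPM in replicate 2 and Map4k5 at 127 CPM in replicate 3. In the opposite direction, 254, 131 and 493 genes were under 1 CPM in that library and at 10 CPM or more in both others. Replicate 3 had the most and replicate 2 the fewest, and the part of library depth in this was not tested.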
